A study of Mus musculus with 34 samples.

Results

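The 6 libraries compared here carry long fragments in 3 cases and short fragments in 3 cases, and all were made from mouse liver RNA whose ribosomal RNA had been removed by enzymatic digestion. They were taken by their labels from a series of 34 libraries. Within each length class the 3 libraries differ in a labelled ramp rate, which is slow, medium or fast, and each long library was matched with the short library of the same ramp rate. The labels give the length classes by name only, so the fragment sizes in bases are not known here. Another 3 digestion libraries with medium fragments served to estimate the spread between libraries and to place the long and short values.

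All 9 digestion libraries were prepared from the liver of 1 mouse, a C57BL/6J wild type aged 12 weeks, with RNA extracted with TRIzol and a column clean-up. Each used 200 ng of RNA, 13 PCR cycles, Illumina's stranded ligation chemistry with Ribo-Zero Plus depletion, and adapters exchanged for xGen ones that carry molecular identifiers, and all carry the label of the second sequencing batch. The animal does not differ between the groups, so every p-value below measures only the spread between library preparations, which is technical. The comparison asks how the fragment length of a library changes the gene levels read from it.

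In ribosomal RNA digestion, DNA probes pair with ribosomal RNA and an RNase that cuts RNA in such hybrids destroys it, which leaves messenger RNA together with unpolyadenylated RNAs such as small nuclear RNAs, the RNA of the signal recognition particle and histone messengers. A read is assigned to a gene by the sequence it covers, so a longer fragment can span bases that separate closely related genes. A transcript that is short in itself can give few long fragments, and the base composition of a fragment is known to affect its copying in library preparation. Liver RNA is dominated by messengers of secreted proteins such as albumin and apolipoproteins and of metabolic enzymes.

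The deposited table gave 51368 genes. The long libraries held 30169400, 28565425 and 26589475 counts in the order slow, medium and fast ramp, the medium libraries 26716184, 27339240 and 24824286 counts, and the short libraries 20033279, 19984269 and 23776194 counts. The long and short totals do not overlap, so depth moves with fragment length, and with every library thinned to the smallest total 2288 genes were called in place of the 2727 given below. The 8 hepatocyte markers were all detected, with a summed level of 81129 to 81713 CPM in the short libraries and 76009 to 77520 in the long ones. Levels are given as normalised CPM, the counts of a gene relative to the size of its library, scaled by the trimmed mean of M values, and as the mean ± SD of 3 libraries unless each library is listed.

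The largest changes fell on genes whose sequence recurs elsewhere in the genome and on small structured RNAs, so the sequences behind the clearest cases are given first, from the GRCm38 genome with its GENCODE annotation. The first set shows spliceosomal small nuclear RNA genes of 191 bases that are nearly the same. Gm23849 (chr11:101627366-101627556, plus strand) is the most abundant of them, and Gm23472 (chr1:72236946-72237136, plus strand) and Gm24497 (chr1:72244213-72244403, plus strand) differ from it by 1 and 2 substitutions, marked in capitals.
Gm23849: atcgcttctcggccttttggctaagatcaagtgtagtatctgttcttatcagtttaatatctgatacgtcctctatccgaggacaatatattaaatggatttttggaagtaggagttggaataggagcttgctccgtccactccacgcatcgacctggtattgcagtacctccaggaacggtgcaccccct
Gm23472: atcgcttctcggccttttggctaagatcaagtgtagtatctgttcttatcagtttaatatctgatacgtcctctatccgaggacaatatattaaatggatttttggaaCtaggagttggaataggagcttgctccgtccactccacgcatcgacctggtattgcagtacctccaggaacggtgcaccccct
Gm24497: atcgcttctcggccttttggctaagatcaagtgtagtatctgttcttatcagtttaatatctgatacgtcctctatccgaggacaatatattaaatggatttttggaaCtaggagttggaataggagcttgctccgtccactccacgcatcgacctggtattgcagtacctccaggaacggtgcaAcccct

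The other is Gm12338 (chr11:75599763-75599954, minus strand), a processed pseudogene, that is, a copy of a spliced messenger inserted into the genome. Its 192 annotated bases are the same as the coding sequence of Cox7c, which occupies bases 230 to 421 of that messenger, so no base is capitalised.
Gm12338: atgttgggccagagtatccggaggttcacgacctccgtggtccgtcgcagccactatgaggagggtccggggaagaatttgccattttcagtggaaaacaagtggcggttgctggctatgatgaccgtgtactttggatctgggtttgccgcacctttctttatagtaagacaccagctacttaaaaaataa

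Many genes differed between long and short fragments, nearly all by little. Of 14897 genes tested, 2727 (18.3%) passed edgeR's quasi-likelihood test at a Benjamini-Hochberg adjusted p below 0.05, of which 1336 (8.97%) were higher and 1391 (9.34%) lower in the long libraries. The median size of the called changes was 0.17 on the log2 scale, or 1.13-fold, with quartiles of 0.12 and 0.29, and the median over all genes tested was 0.0005. Only 278 of the called genes (1.87% of those tested) changed by at least 1.5-fold, 121 upward and 157 downward, and 181 changed by at least 2-fold, 44 upward and 137 downward. The biological coefficient of variation in these technical libraries was 2.801%. The count depends on the tool and on the libraries in the fit. DESeq2 called 1060 genes, and edgeR over 27 libraries that include other depletion methods called 934, or 1626 when a pull-down library of low depth was left out. Of 113 called genes that were examined singly, 40 lost their call in the fit of 27 libraries. Among these were Apoe, Apoa1, Tpt1, Fasn, mt-Nd1, Malat1, Rn7sk and Rpph1, and the loss is marked below for only some of the 40.

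Albumin shows the scale of the typical change. Alb, the main plasma protein messenger, read 56547, 56281 and 56860 CPM in the short libraries and 52418, 51387 and 52534 in the long ones, so the groups do not overlap. The change was -0.12 ± 0.01 (log2 ± SE, adjusted p = 1.3e-07). Apob, the structural protein of very low density lipoprotein with one of the longest liver messengers, fell by 0.12 from 16565 ± 198 to 15247 ± 51.7 CPM. Scd1, a fatty acid desaturase, fell by 0.11 from 15445 ± 115 to 14325 ± 96.9 CPM, and C3, the central complement component, fell by 0.10. Trf, which carries iron in plasma, rose by 0.09 from 11426 ± 79.4 to 12180 ± 109 CPM. These are the 5 most abundant protein-coding nuclear genes, and none of them changed by more than 1.1-fold. All 5 lost their call in the fit of 27 libraries.

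Fewer genes separated medium from short fragments than long from medium ones, a difference that was not itself tested. Medium against short fragments called 51 genes (0.342%), and long against medium called 1614 (10.8%); both use the medium libraries, so the counts are not independent of each other. Fabp1, the fatty acid binding protein of hepatocytes, read 492, 474 and 473 CPM in the short, 499, 555 and 513 in the medium and 808, 690 and 799 in the long libraries. Its long libraries all lie above the others, with a change of 0.67 ± 0.05 (adjusted p = 5.2e-08). With DESeq2 the counts were 27 and 520. Without the slow-ramp short library the medium against short count was 27, and without the fast-ramp short library or without the ramp term it was 32. Without the slow-ramp long library the long against medium count was 860 and without the fast-ramp long library 1029.

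**Figure D1:**
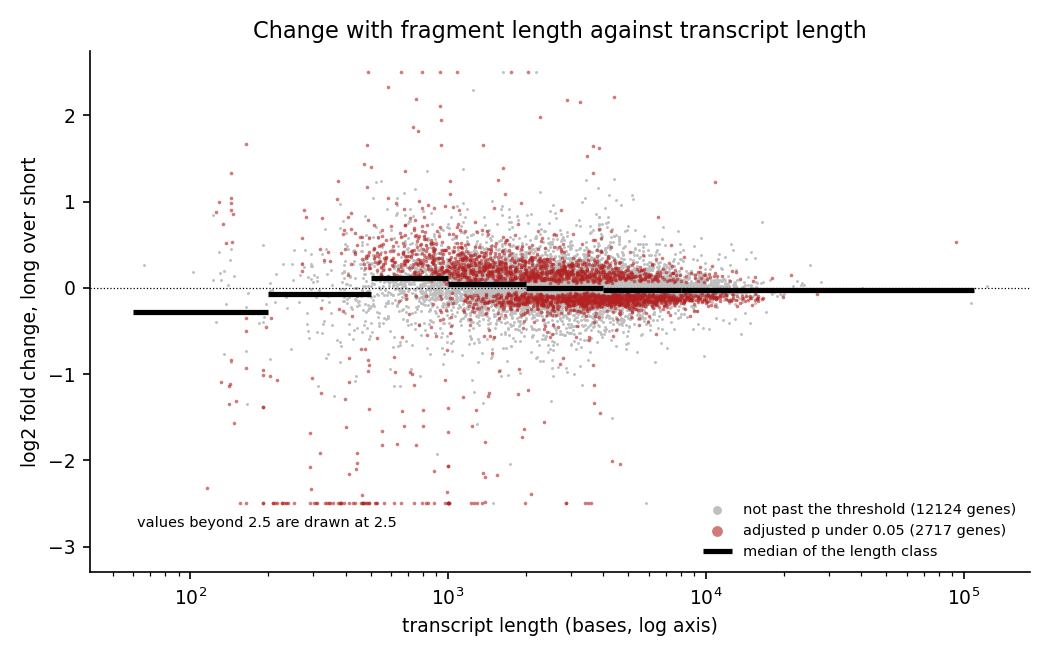
The log2 change of each gene, long over short, is plotted against transcript length in bases on a log axis. Each point is 1 gene, red where the adjusted p is under 0.05 and grey otherwise, values beyond 2.5 are drawn at 2.5, and black bars are the medians of length classes, highest at 0.12 from 500 to 1000 bases and lowest at -0.28 under 200 bases.

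On balance shorter transcripts rose and longer ones fell, except at the shortest end. Taking each gene's longest annotated transcript of its own type, genes of 500 to 1000 bases had a median change of 0.12, with 238 of 955 rising and 52 falling. Genes of 1000 to 2000 bases had a median of 0.04 (419 rose and 194 fell of 3062), and those of 2000 to 4000 bases had a median of -0.004 (410 and 459 of 5758). From 4000 to 8000 bases 177 rose and 466 fell of 3973, with a median of -0.02, and at 8000 bases or more 33 rose and 129 fell of 758, with a median of -0.03. Below 500 bases the direction turned, with 54 rising and 86 falling of 335, and below 200 bases 11 rose and 20 fell of 56, with a median of -0.28. These bins can be read against 8.97% rising and 9.34% falling over all genes.

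Protein-coding genes with no near-identical gene among those tested did not show the turn below 500 bases. Of these genes, 22 rose and 2 fell of 42 under 500 bases, with a median of 0.32. From 500 to 1000 bases 164 rose and 8 fell of 481, with a median of 0.16. The shares called were 57.1% and 35.8%, beside 18.3% over all genes, of which 8.97% rose and 9.34% fell. Across all 14841 genes with an annotated transcript, Spearman's correlation between the log2 change and transcript length was -0.16, and -0.20 given GC content. It was -0.15, -0.11 and -0.14 in the slow, medium and fast pairs taken alone. Genes share libraries and are not independent replicates, so the correlation is a description with no p. Length was measured on annotation and not on the transcripts present in this liver: with the median annotated transcript of each gene in place of the longest, the correlation was -0.11.

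The length shift also shows in whole libraries. The mean transcript length weighted by counts was 3641, 3641 and 3651 bases in the short libraries, 3651, 3616 and 3604 in the medium ones and 3555, 3599 and 3572 in the long ones. The long libraries all lie below the short ones, by 68.7 bases on average (exact permutation test, two-sided p = 0.10, the smallest that 3 against 3 allows). Transcripts of 500 to 1000 bases took 5.19 ± 0.042% of counts in the short and 5.74 ± 0.084% in the long libraries, and transcripts of 8000 bases or more 7.93 ± 0.028% and 7.61 ± 0.063%. Transcripts under 200 bases took 0.0598 ± 0.0044% and 0.0360 ± 0.0029%, while those of 200 to 500 bases took 4.15 ± 0.16% and 4.41 ± 0.44%, which overlap.

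**Figure D2:**
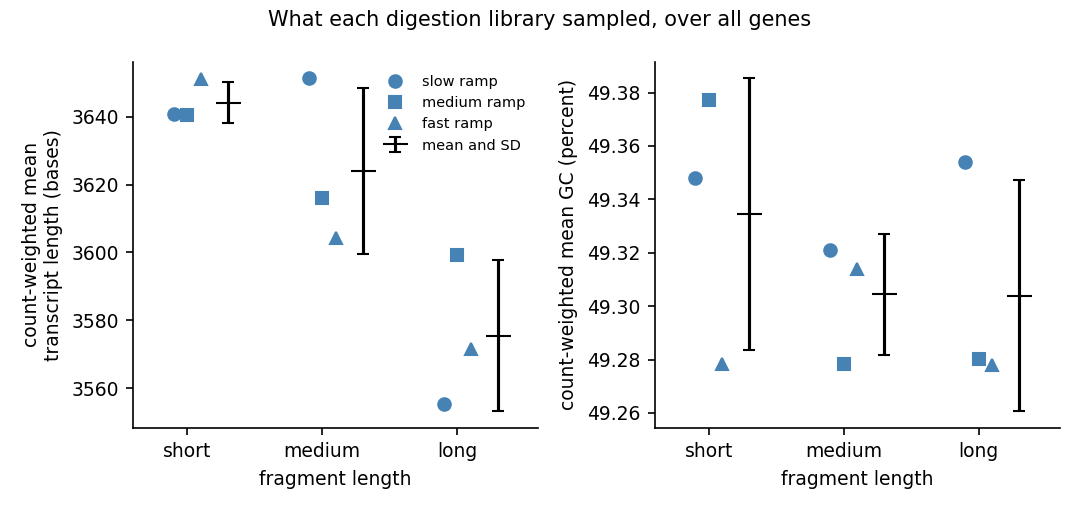
Count-weighted mean transcript length in bases (left) and GC content in percent (right) are shown for each digestion library by fragment length, with marker shapes for ramp rate and the mean and SD of 3 libraries beside them. The long libraries lie below the short ones in length, at 3555 to 3599 against 3641 to 3651 bases, and overlap them in GC content.

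GC-rich genes leaned downward in the long libraries, and the relation was about as weak as that with length. Spearman's correlation between the log2 change and the GC content of the transcript was -0.18, and -0.22 given length, with -0.12, -0.15 and -0.14 in the slow, medium and fast pairs. In quintiles of genes ordered by GC content the median change ran 0.043, 0.016, -0.005, -0.023 and -0.037. The lowest quintile, up to 43.9% GC, had 369 rises and 114 falls of 2969 genes. The highest, above 55.6%, had 171 rises and 394 falls of 2968. The shares called, 16.3% and 19.0%, are near the 18.3% over all genes, of which 8.97% rose and 9.34% fell. Longer transcripts had lower GC content in these genes (Spearman's correlation -0.20), so the relations with length and GC work against each other, and each is larger once the other is held.

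When genes were split by length and GC at once, the median declined in order of GC content in each length class from 1000 bases upward but not below. Among transcripts of 4000 to 8000 bases the median change ran from 0.035 in the lowest GC quintile of that length class to -0.061 in the highest. Of 795 genes at each end, 85 rose and 22 fell in the lowest quintile and 10 rose and 158 fell in the highest. The shares called were 13.5% and 21.1%, beside 18.3% over all genes, of which 8.97% rose and 9.34% fell. Among those of 2000 to 4000 bases it ran from 0.053 to -0.049. Among those of 500 to 1000 bases the median lay above 0 in every GC quintile, at 0.132 in the lowest and 0.076 in the highest, with 41 to 53 of 191 genes rising and 6 to 16 falling in each. Under 500 bases the quintile medians ran -0.070, 0.090, -0.063, -0.142 and -0.153. The mean GC content weighted by counts hardly moved, at 49.3 ± 0.051% in the short and 49.3 ± 0.043% in the long libraries (difference -0.031 percentage points, exact permutation p = 0.60). With the 100 most abundant genes left out, the difference was -0.101 percentage points (exact permutation test, two-sided p = 0.10).

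**Figure D3:**
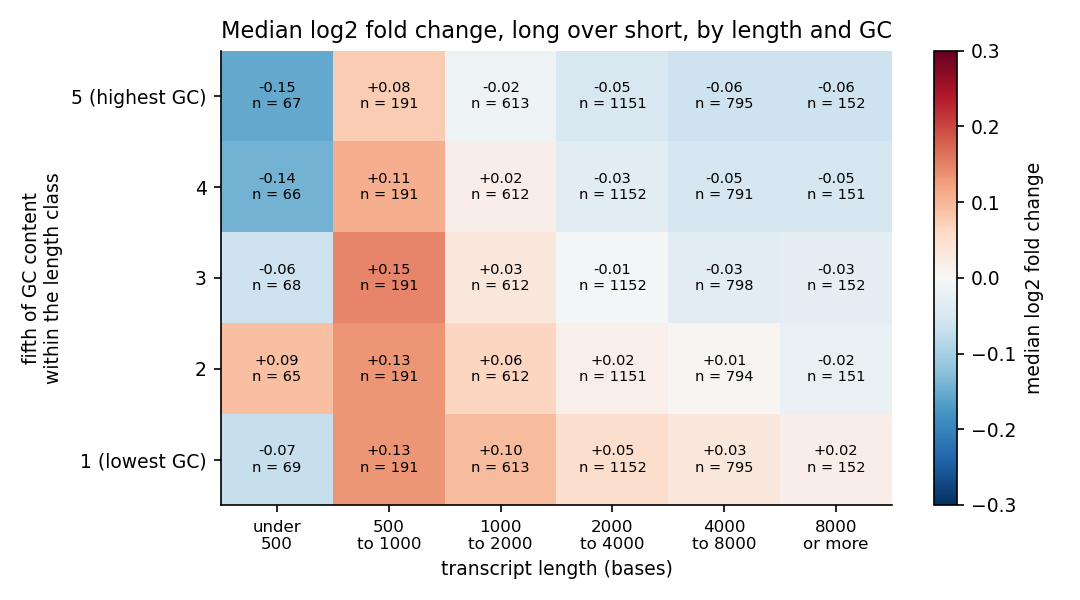
Each cell gives the median log2 change, long over short, and the number of genes of 1 transcript length class (columns, in bases) and 1 quintile of GC content within that class (rows). The medians decline from the lowest to the highest GC quintile from 1000 bases upward, and every cell from 500 to 1000 bases lies above 0.

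Cebpb, a liver transcription factor whose 1504-base transcript holds 67.2% GC, is an example of a GC-rich gene that fell. It read 73.2, 59.4 and 41.8 CPM in the short libraries and 51.6, 39.2 and 27.02 in the long ones. The groups overlap, since the level differs by ramp rate in both classes, but each long library lies below its matched short one. The change was -0.57 ± 0.04 (adjusted p = 2.2e-08). Cebpa, a related factor with 62.6% GC, read 655, 647 and 520 CPM in the short and 548, 533 and 396 in the long libraries (-0.31 ± 0.03). Jund, an AP-1 component with 67.1% GC, read 89.4, 83.4 and 73.1 against 70.0, 72.6 and 55.2 CPM (-0.32 ± 0.04). Without the ramp term the calls of Cebpb and Cebpa were lost, at changes of -0.54 and -0.30, and in the fit of 27 libraries those of Cebpa (-0.28) and Jund (-0.30) were lost.

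Among small structured RNAs, most spliceosomal RNA genes fell and the others moved in both directions. Of 18 genes typed as snRNA, 13 fell and 0 rose, beside 9.34% falling and 8.97% rising over all genes, with a median of -1.07. Gm23849 read 198, 186 and 169 CPM in the short, 146, 138 and 153 in the medium and 68.4, 67.0 and 76.4 in the long libraries, a change of -1.38 ± 0.05 (adjusted p = 2.2e-11). All long libraries lie far below all short ones, with the medium ones between.

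The counts were divided unevenly among the near-copies of Gm23849. Gm23472, which differs by the substitution shown above, read 15.6, 64.1 and 36.7 CPM in the short libraries and 0 in each long one, at least 367-fold lower against a floor of 3 counts per library. Gm24497 read 73.6, 17.8 and 36.7 CPM in the short and 29.2, 31.2 and 34.8 in the long libraries and was not called (-0.40 ± 0.44, adjusted p = 0.62), though it passed with no gene filter beyond 1 count (-0.39). The sum over the family was 304 CPM in the short and 118 in the long libraries (-1.37 ± 0.04, adjusted p = 2.0e-23), a fall as large as that of its most abundant member. A pair of snRNA genes of 141 bases, Gm24407 and Gm24265, fell by 1.35 and 1.14.

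Genes of the signal recognition particle type did not move together. Rn7s1, the RNA of the signal recognition particle, which directs secretory proteins to the endoplasmic reticulum, was not called, at 31049, 30937 and 28525 CPM in the short and 35937, 27366 and 31840 in the long libraries, which overlap; it passed without the medium-ramp long library, at 0.18, and with no gene filter beyond 1 count, at 0.08. Rn7s6 read 16.7, 17.5 and 13.8 CPM in the short, 9.38, 9.88 and 11.2 in the medium and 3.36, 3.71 and 4.30 in the long libraries (-2.07 ± 0.11, adjusted p = 2.4e-09). Gm26461 read 42.4, 46.0 and 40.1 against 13.3, 10.7 and 16.1 CPM (-1.68 ± 0.09). Both thus lost most of their counts, as did Gm24447, a 338-base gene typed as misc_RNA (-2.70 ± 0.10).

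Other noncoding RNAs moved in both directions. Rn7sk, which holds the elongation factor P-TEFb inactive, rose from 4649 ± 231 to 5816 ± 267 CPM (0.32 ± 0.03). Rpph1, the RNA of ribonuclease P, which trims transfer RNA precursors, rose from 1391 ± 40.8 to 1892 ± 56.1 CPM (0.45 ± 0.03). Scarna13 and Scarna10, RNAs of the Cajal body that guide modification of spliceosomal RNAs, rose from 3.88 to 7.22 CPM and from 14.4 to 25.4 CPM. Scarna2, of the same class, fell from 28.1 ± 1.43 to 16.0 ± 0.658 CPM (-0.82 ± 0.06). Rnu3b2, a copy of the nucleolar RNA that acts in ribosomal RNA processing, fell from 18.6 ± 1.30 to 8.99 ± 4.35 CPM. Among 34 genes typed as snoRNA, 12 rose and 7 fell (55.9% called, beside 18.3% over all genes), with a median of 0.16. Of the 26 genes listed as small structured RNAs, 8 rose and 10 fell, with a median of -0.19.

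Genes with a near-identical gene elsewhere made up most of the large changes. Such genes were defined by at least 95% identity over at least 80% of the transcript, and 943 of the genes tested had one. Of these 39.0% were called against 16.9% of the other 13954, and 172 of the 278 changes of at least 1.5-fold and 132 of the 181 of at least 2-fold were among them. When the counts of near-identical genes were summed before testing, 2793 of 14288 genes or groups (19.5%) were called, close to the count for single genes, but 131 in place of 278 changed by at least 1.5-fold. This summing was chosen after the data were seen.

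Many pseudogenes fell in the long libraries, and more of their parents rose than fell. Of 292 processed pseudogenes tested, 81 fell and 5 rose, beside 9.34% and 8.97% over all genes, with a median of -0.21, and all processed pseudogenes together took 0.178 ± 0.0015% of counts in the short and 0.124 ± 0.0027% in the long libraries. Matching pseudogenes of every kind to the closest protein-coding gene gave 216 pairs, in which the pseudogene fell in 87 and rose in 9. In 58 pairs the pseudogene fell while the parent rose, in 2 it was the reverse, in 8 both fell, and in 21 of the falls the parent was not called. Among the 87 falls the median change was -2.75 for the pseudogene, 0.15 for its parent and 0.11 for their sum. In 22 of them no long library held a count.

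A larger share of the identical copies fell, a difference that was not tested. Of 58 pairs identical over the aligned bases 34 pseudogenes fell (58.6%), and of 158 pairs with differences 53 fell (33.5%). The pseudogene's annotated transcript was shorter than the parent's in 213 of 216 pairs, with medians of 683 and 1794 bases, and the part of length in these falls was not tested. The parents, 171 genes, rose in 73 cases and fell in 15, beside 8.97% rising and 9.34% falling over all genes. Among all 943 tested genes with a near-identical gene 172 rose and 196 fell.

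Tpt1-ps3, a processed pseudogene of 519 bases identical to the coding sequence of Tpt1, the gene of the translationally controlled tumour protein, read 88.4, 99.5 and 66.0 CPM in the short, 63.4, 54.1 and 52.3 in the medium and 0 in each long library, at least 800.5-fold lower. Tpt1 read 504, 489 and 521 CPM in the short and 604, 599 and 609 in the long libraries (0.26 ± 0.02). Their sum was 590 against 604 CPM and did not pass (0.03 ± 0.02, adjusted p = 0.24). The parent rose as the copy went to 0, and the sum of the pair moved less than either.

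Cox7c, a subunit of cytochrome c oxidase, rose beyond what its pseudogene lost. Gm12338, whose sequence is shown above, read 18.8, 18.5 and 20.5 CPM in the short, 12.9, 12.6 and 13.1 in the medium and 0 in each long library, at least 182-fold lower. Cox7c read 86.5, 90.1 and 81.2 CPM in the short and 147, 151 and 152 in the long libraries (0.81 ± 0.04). The sum rose from 105 to 150 CPM (0.51 ± 0.03, adjusted p = 5.3e-15). Rpl27, a protein of the large ribosomal subunit, and its copy Rpl27-ps3 did likewise: the copy went from 36.0 ± 0.352 CPM to 0, at least 341-fold lower, Rpl27 went from 19.3 ± 1.35 to 70.4 ± 1.86 CPM, and the sum rose by 0.35 ± 0.03. Rps12-ps3, a copy of Rps12, went from 14.9 ± 1.38 CPM to 0, at least 141-fold lower, as Rps12 went from 25.6 ± 1.02 to 52.9 ± 1.27 CPM.

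Near-identical protein-coding genes also moved in opposite directions. Rps27 and Rps27rt share an identical coding sequence of 255 bases. Rps27 read 18.4, 26.5 and 36.7 CPM in the short and 1.33, 1.84 and 2.72 in the long libraries, and Rps27rt 41.03, 29.5 and 20.6 against 73.2, 69.4 and 70.3 CPM. In this pair the intron-bearing Rps27 was the one that lost, and the sum rose from 57.6 to 72.9 CPM (0.34 ± 0.03). Without the fast-ramp short library the change of Rps27 was -4.38 in place of -3.79.

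Apoc2, an activator of lipoprotein lipase, and Gm44805, a locus that overlaps it on chromosome 7 and shares 647 identical bases with it, moved in opposite directions. Apoc2 read 122, 120 and 116 CPM in the short and 78.5, 42.6 and 58.9 in the long libraries, while Gm44805 read 21.9, 28.3 and 27.8 against 73.9, 111 and 91.7 CPM. Taken alone Apoc2 fell by 1.00 (SE 0.10), and summed the pair rose by 0.07 ± 0.02 (adjusted p = 0.042). The fall of Rpl5 by 1.19, from 53.0 ± 0.832 to 23.3 ± 2.21 CPM, became a rise of 0.09 when its copy Gm15500 was added. Rps23 rose from 17.3 ± 1.19 to 54.4 ± 1.89 CPM, and its group rose by 0.48. Gm2000, a copy of Rpl35, fell from 24.9 ± 3.13 to 6.02 ± 2.31 CPM, and its group rose by 0.11.

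**Figure D4:**
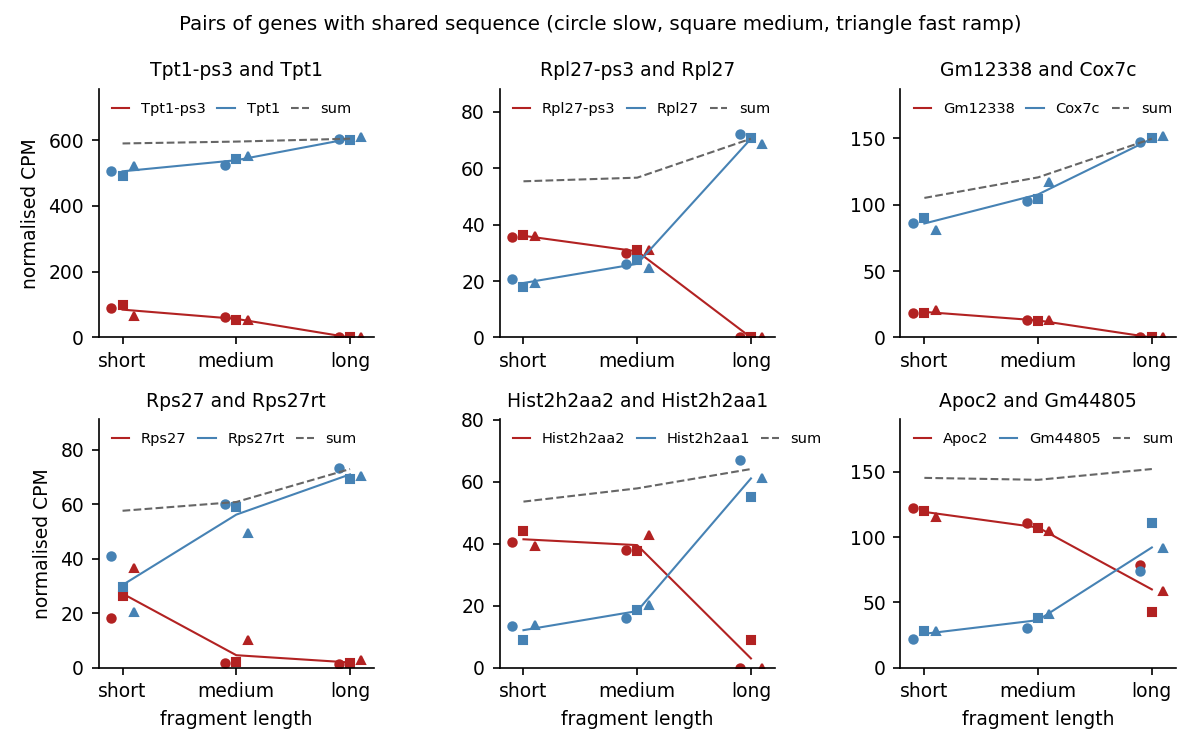
Normalised CPM of 6 pairs of genes with shared sequence is plotted by fragment length, with marker shapes for the ramp rate of each library, solid lines through the means and a dashed line for the sum. In each pair the red gene declines and the blue one rises toward long fragments, and the Tpt1-ps3 and Tpt1 sum runs from 590 to 604 CPM.

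In multigene families a single gene and its group could move in different directions. Mup18, one of the major urinary proteins that carry pheromones, rose from 2.30 ± 0.482 to 35.6 ± 3.64 CPM (3.96 ± 0.10), while the group of 15 near-identical genes to which it belongs fell by 0.26, from 4765 to 3972 CPM. Mup22, the most abundant gene of that group, fell by 0.45. The whole list of major urinary protein genes summed to 11592 to 12009 CPM in the short and 11273 to 11800 CPM in the long libraries, which overlap. Hist2h2aa2, a histone H2A gene, went from 41.4 ± 2.501 to 3.03 ± 5.25 CPM and its near copy Hist2h2aa1 from 12.1 ± 2.63 to 61.0 ± 5.99, and their group of 14 rose by 0.19. Only the medium-ramp long library held any count of Hist2h2aa2. Zc3h11a is the symbol of a pair of genes in the table. The less abundant one rose from 2.32 ± 0.807 to 10.6 ± 1.78 CPM, and the sum of the pair went from 28.3 to 43.3 CPM. With the near-identical Gm38394, at 223 CPM in the short and 210.1 in the long libraries, the group did not pass (0.01, adjusted p = 0.83). Gm45799, a protein-coding gene of 490 bases with no near copy among the genes tested, fell from 6.97 ± 1.05 to 3.89 ± 0.223 CPM. Gm22988, a snoRNA of 144 bases inside Eif4a1, rose from 15.3 ± 0.619 to 31.3 ± 3.11 CPM, and Gm12840, a lincRNA, from 6.56 ± 0.186 to 13.1 ± 0.395. ENSMUSG00000111527, a gene of the table with no entry in the annotation used here, read 0 in each short library, 5.09 in the medium-ramp library of medium length and 14.6, 14.1 and 14.1 CPM in the long ones, at least 100.4-fold higher than in the short ones.

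Most messengers of cytosolic ribosomal and of nuclear-encoded respiratory proteins rose, and both lists have short median transcripts. Of 85 cytosolic ribosomal protein genes tested, 66 rose and 5 fell, with a median change of 0.24 and a median transcript of 887 bases, against 18.3% called and a median of 0.0005 over all genes. Among the 47 of them with no near-identical gene, 35 rose and 0 fell, with a median of 0.20. Rps29, a 390-base messenger of the small subunit, read 70.9, 63.6 and 66.1 CPM in the short and 108, 98.8 and 104 in the long libraries (0.63 ± 0.03, adjusted p = 6.3e-10), and Rps21 rose by 0.67. Rps2, the most abundant of the list and longer at 1094 bases, rose by 0.09. Of 77 mitochondrial ribosomal protein genes, with a median of 1339 bases, 29 rose and 3 fell, with a median of 0.12.

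Of 81 nuclear genes for oxidative phosphorylation, 60 rose and 1 fell, beside 8.97% rising and 9.34% falling over all genes, with a median of 0.21 and a median length of 908 bases. Atp5k, a small subunit of ATP synthase with a 371-base transcript, read 7.40, 8.94 and 6.77 CPM in the short and 17.1, 13.6 and 16.1 in the long libraries (1.03 ± 0.10, adjusted p = 2.1e-06). Ndufa1, of complex I, rose by 0.68 from 18.1 ± 0.797 to 29.1 ± 0.872 CPM, and Cox6c, of complex IV, by 0.67. Sdhb, the iron-sulphur subunit of complex II, was the fall, from 138 to 115 CPM (-0.26 ± 0.02). The 38 proteasome genes had 17 rises and 1 fall with a median of 0.10, and the 23 Sm and related splicing protein genes 12 rises and 0 falls with a median of 0.25; Lsm5 rose by 0.58 and kept its call without the fast-ramp long library, but lost it without any other one of the 6 libraries (0.43 to 0.71).

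Mitochondrially encoded RNA took 3.63 ± 0.108% of counts in the short and 4.08 ± 0.080% in the long libraries. Of its 13 messengers 10 rose and 1 fell (84.6% called, beside 18.3% over all genes), with a median of 0.25 and a median GC content of 37.1%. mt-Nd1, of complex I, rose by 0.39 and mt-Nd3 by 0.31, and mt-Atp8, the shortest at 204 bases, was not called. mt-Atp6 rose from 306 ± 27.4 to 513 ± 93.4 CPM, but a nuclear copy identical over 678 bases, Gm10925, held most of the pair's counts, and their sum rose by 0.26. mt-Co2 fell by 0.08 while its nuclear copy Gm28661 rose from 396 ± 119 to 971 ± 235 CPM, and their sum rose by 0.26. The call of mt-Co2 was lost with DESeq2, in the fit of 27 libraries, without the ramp term, and without the slow-ramp long (-0.04), slow-ramp short (-0.06) or fast-ramp short library (-0.08). That of Gm28661 was lost with DESeq2 and without the slow-ramp long library (1.00). mt-Co1 rose by 0.09, while the group of 3 near-identical genes to which it belongs did not pass (0.03 ± 0.02, adjusted p = 0.30). It lost its call with DESeq2, in the fit of 27 libraries, without the slow-ramp long library (0.06) or without the medium-ramp short library (0.08).

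Liver secretory genes moved in both directions. Of 14 apolipoprotein genes 9 rose and 3 fell, beside 8.97% rising and 9.34% falling over all genes, with a median of 0.16. Apoe, which carries lipoproteins to their receptors, read 6063, 6104 and 6168 CPM in the short and 8238, 7619 and 7934 in the long libraries (0.38 ± 0.02, adjusted p = 5.7e-09). Apoa2 and Apoc1, small proteins of high density lipoprotein with transcripts of 518 and 532 bases, rose by 0.45 and 0.41, and Apoa1, its main protein, by 0.22. The 13934-base Apob fell, as given above. Of 29 other plasma protein genes 9 rose and 7 fell, among them Hpx, which binds haem (0.15), and Fetub (-0.18) and Ttr (-0.17), and of 42 complement and coagulation genes 9 rose and 11 fell, with a median of -0.002. The lectin Mbl2 rose by 0.31.

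Among cytochrome P450, fatty acid and cholesterol or bile acid genes more fell than rose. Of 54 cytochrome P450 genes 22 fell and 2 rose, beside 9.34% and 8.97% over all genes, with a median of -0.08. Cyp3a11, a major drug-oxidising enzyme, read 6728, 6606 and 6738 CPM in the short and 6269, 6259 and 6341 in the long libraries (-0.09 ± 0.01), and Cyp2d10 fell by 0.22 from 621 ± 6.98 to 534 ± 5.51 CPM. Cyp3a44 had the largest change of the list, from 0.885 ± 0.122 to 0.280 ± 0.132 CPM, which lost its call without the medium-ramp long library (-1.07). Of 40 fatty acid genes 14 fell and 5 rose, including Fasn, the fatty acid synthase, with a 10050-base transcript (-0.16 ± 0.02), beside the rise of the 553-base Fabp1. Of 34 cholesterol and bile acid genes 10 fell and 4 rose, among them Abcg8, which exports sterols into bile (-0.18), and Pmvk, of the mevalonate pathway (0.34).

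Conjugating, nitrogen and glucose genes showed no shared direction. The shares called were above the 18.3% over all genes, at 32.0% for phase II, 44.4% for urea cycle and amino acid and 53.8% for glucose genes. Of 50 phase II genes 7 rose and 9 fell, with Mgst3 at 0.39 and Gstm1 at -0.08, and of 36 urea cycle and amino acid genes 6 rose and 10 fell. Cps1, which starts the urea cycle, read 5715 ± 13.3 CPM in the short and 5765 ± 49.3 in the long libraries and did not pass (0.01 ± 0.01, adjusted p = 0.52). Of 26 glucose genes 6 rose and 8 fell; Fbp1, of gluconeogenesis, rose by 0.20, and Pck1, of the same pathway, read 2451 ± 5.69 and 2425 ± 17.2 CPM and did not pass. Of 29 solute transporters 8 fell and 1 rose (31.0% called), and of 13 metallothionein and iron genes 4 rose and 2 fell (46.2%), with Fth1, an iron storage subunit, at 0.25.

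Among hepatocyte factors and chromatin regulators more genes fell than rose. Of 29 hepatocyte transcription factor genes 11 fell and 1 rose, beside 9.34% falling and 8.97% rising over all genes, with a median of -0.06 and a median GC content of 54.9%. Klf15, a factor of amino acid metabolism, read 222, 215 and 218 CPM against 193, 197 and 189 (-0.18 ± 0.02), and Hnf4a, a central hepatocyte factor, did not pass (-0.05 ± 0.02, adjusted p = 0.065), though it did in a fit of the 6 long and short libraries alone and without the ramp term (-0.05 in both). Of 50 chromatin regulator genes, with a median of 8544 bases, 16 fell and 1 rose, among them Arid1a (-0.15) and Kmt2d (-0.10), a histone methyltransferase that acts at enhancers. Of 50 genes with giant transcripts 14 fell and 3 rose, and the 13123-base Akap9 rose by 0.18 at 44.8% GC. Of 21 clock genes 4 fell and 0 rose, a called share of 19.0% that is near the 18.3% over all genes, with Nfil3 at -0.28 (not called by DESeq2). Of 27 immediate early genes 1 rose and 1 fell, and of 52 zinc finger genes of the KRAB family, with a median GC content of 38.9%, 1 rose and 1 fell, with a median of 0.03.

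Noncoding and histone lists moved less evenly. The nuclear lncRNA Malat1 rose from 4874 ± 49.6 to 5517 ± 123 CPM (0.18 ± 0.01), as the sole call among 8 nuclear lncRNA genes (12.5%, below the 18.3% over all genes). Of 13 snoRNA host genes 4 rose and 0 fell (30.8% called), with Gas5 at 0.34 and Snhg6 at 0.64. Of 52 replication histone genes, whose messengers lack a poly(A) tail, 12 rose and 3 fell (28.8% called) with a median of 0.14, and 39 of them have a near-identical gene. Hist1h2bc, their most abundant member, rose by 0.14 and lost its call with DESeq2, in the fit of 27 libraries and without the slow-ramp long (0.09) or slow-ramp short library (0.12).

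**Figure D5:**
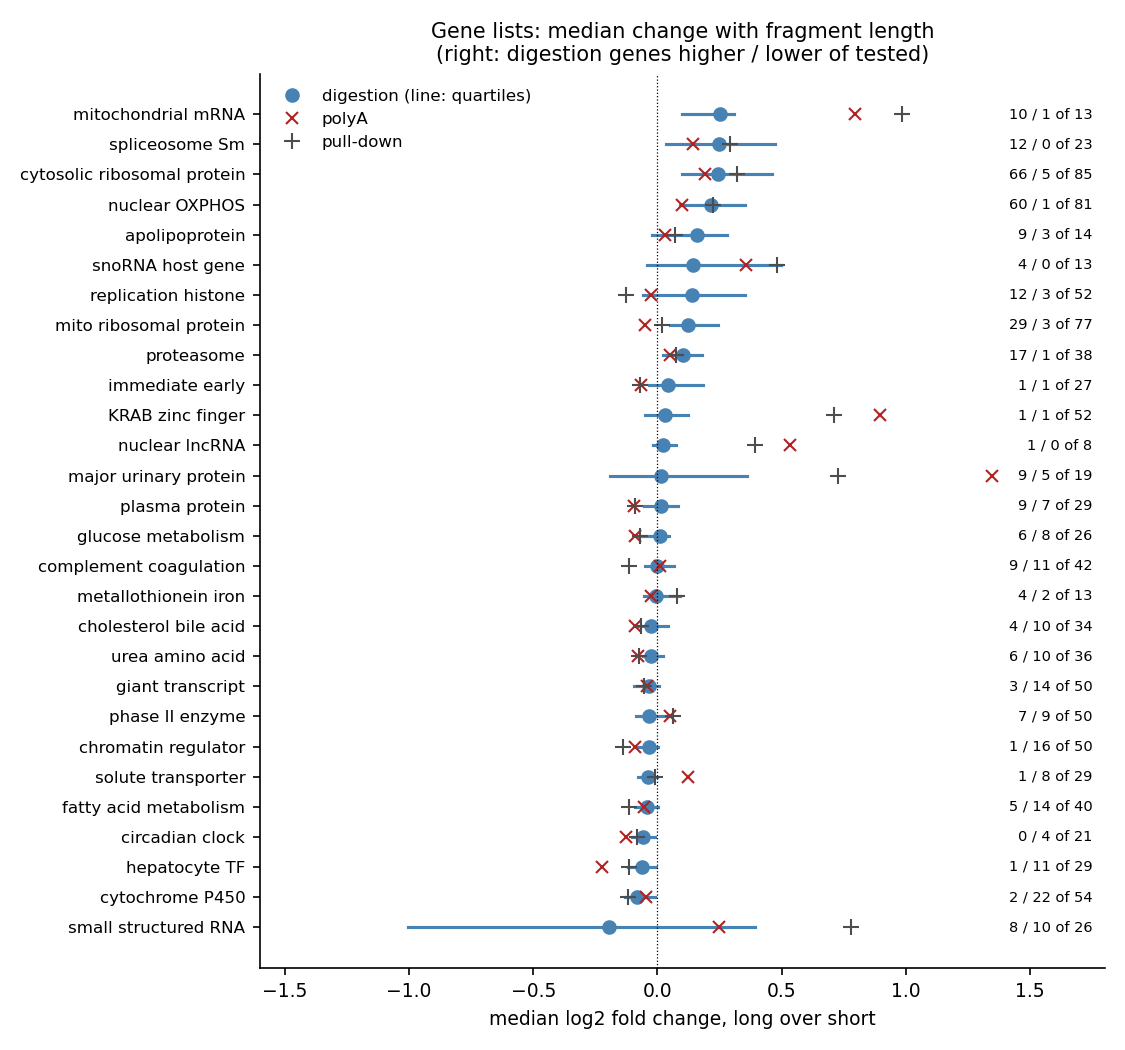
Median log2 change, long over short, is shown for each gene list other than cell markers, with digestion (blue points, with a line for the quartiles), poly(A) selection (red crosses) and pull-down (dark grey plus signs), and the right column counts genes higher and lower of those tested with digestion. Digestion values are from the fit of 9 libraries and the others from that of 27, and the ribosomal protein list has a median of 0.24 and the cytochrome P450 list one of -0.08 with digestion.

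Some markers of other liver cells were called, in shares on both sides of the 18.3% over all genes. Bulk libraries cannot tell fewer cells of a type from less RNA per cell, and here all libraries share 1 liver. Of 10 Kupffer cell markers 1 rose (10.0%), Clec4f (0.19), and of 9 endothelial markers 2 rose (22.2%), with Kdr at 0.16. Of 8 stellate markers 2 rose (25%), with Colec11 at 0.29, which lost its call with DESeq2 and without the slow-ramp (0.25) or fast-ramp (0.22) short library. Of 6 bile duct markers 1 rose (16.7%), Sox9 (0.30, not called by DESeq2), and of 8 lymphocyte markers 0 were called. Summed marker levels ran from 248 to 254 CPM in short and 260 to 269 in long libraries for Kupffer cells and from 23.9 to 25.9 and 24.2 to 26.8 for lymphocytes. The endothelial (436 to 442 and 447 to 455), stellate (341 to 344 and 355 to 357) and bile duct sums (55.0 to 56.7 and 58.3 to 60.1) were also higher in the long libraries. The erythroid sum was lower there, at 129 to 132 CPM in the short and 123 to 124 in the long libraries. Of 6 erythroid markers 33.3% were called: Hbb-bs, a beta globin, rose by 0.53 and Alas2, an enzyme of haem synthesis, fell by 0.11. Alas2 lost its call with DESeq2 and in the fit of 27 libraries, and Hbb-bs without the medium-ramp short library (0.44). Of the 8 hepatocyte markers 4 fell and 1 rose, with a median of -0.07.

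The change with fragment length differed from that in libraries made from the same liver by poly(A) selection or by pull-down of ribosomal RNA, which also used 200 ng of RNA and 13 PCR cycles. In 1 fit of 27 libraries over 15442 genes, long against short was called for 934 genes with digestion, 7682 with poly(A) selection and 5146 with pull-down, and the median absolute change was 0.10, 0.27 and 0.22. Without the slow-ramp long pull-down library the counts were 1626, 8151 and 6403. The change differed between digestion and poly(A) selection for 5039 genes (32.6%) and between digestion and pull-down for 2230 (14.4%), by the interaction test. All poly(A) libraries belong to the other sequencing batch, so method and batch cannot be told apart there. The slow-ramp long pull-down library held 1126377 counts, and without it 4083 genes differed between digestion and pull-down. With scaling by library totals alone the count was 4479.

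The correlation between the change and GC content lay further from 0 with poly(A) selection than with digestion. Across genes, the Spearman correlation per matched pair averaged -0.14 ± 0.015 with digestion and -0.69 ± 0.053 with poly(A) selection, and the pairs of the methods do not overlap. With 3 pairs against 3 no exact permutation test can go below a two-sided p of 0.10, so none could pass. With pull-down the pairs gave 0.33, -0.53 and -0.61, the first being the pair with the low library, values on both sides of those with digestion. The correlation with length averaged -0.13 ± 0.021 with digestion, 0.084 ± 0.014 with poly(A) selection and -0.0004 ± 0.015 with pull-down. Given GC content, the correlation with length in the fit of 27 libraries was negative with each method, at -0.18 with digestion, -0.07 with poly(A) selection and -0.11 with pull-down. The count-weighted mean transcript length was likewise lower in the long library of every matched pair, by 22.4 bases on average with poly(A) selection and by 201 bases with pull-down, beside the 68.7 bases with digestion. The KRAB zinc finger genes, which are AT-rich, had a median change of 0.06 with digestion, 0.90 with poly(A) selection and 0.71 with pull-down in the fit of 27 libraries.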

How the data were processed

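RNA of 1 mouse was sequenced in 34 libraries, 1 of them from heart and the others from liver; the 6 long and short digestion libraries of liver are compared here. The deposited table holds expected counts per gene for every library. Per the submitters' processing notes, the authors used Salmon 1.9.0, UMI-tools 1.1.1, R 4.4.0 and the GRCm38 build; how the expected counts were summed from transcripts to genes is not given in the sources used here, and 12.5% of the values are not whole. They were rounded to whole numbers. Of 51368 genes, 50896 matched the GENCODE annotation of GRCm38, and the 472 others held at most 0.0452% of a digestion library's counts. Adapters carried molecular identifiers per the labels; whether duplicates were removed before counting is not given in the sources used here.

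Genes were kept by edgeR's filterByExpr, scaled by the trimmed mean of M values and tested with edgeR 4.0.16 (limma 3.58.1, R 4.3.3) by the quasi-likelihood F test, with terms for ramp rate and fragment length over the 9 digestion libraries and Benjamini-Hochberg adjustment over all 14897 genes at a threshold of 0.05. Standard errors are the absolute log2 change divided by the square root of F. On simulated counts, 100% of 100 genes changed by 0.585 and of 100 changed by 1 on the log2 scale were recovered, and 10 unchanged genes were called in a fit of 14734 genes. Recovery of changes smaller than 0.585 was not tested. The median size of the called changes, 0.17, lies below that value. DESeq2 1.42.0 was an alternative. Methods were compared by the interaction of method and length in 27 libraries. Near-identical genes were found with blastn among the annotated transcripts of the genes tested, so a copy outside that set is not seen. A group at 0 was given a floor of 3 counts per library.

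The text names, among called genes that moved the same way in all 3 matched pairs with a mean of at least 5 CPM, the 8 largest rises and 8 largest falls of protein-coding genes and 4 of each of other types. It also draws on the most changed called and the most abundant member of each of 35 lists and on the 5 most abundant nuclear protein-coding genes. These rules gave 87 genes, and 43 others were added after their values were seen. The comparison and the lists were chosen with earlier results of these data known. Some items the rules named are not reported here.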

Additional observations from a re-analysis of the deposited data

Results flagged for a closer look

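The change from short to long fragments differed between digestion and poly(A) selection for 5039 genes and between digestion and pull-down for 2230 genes, by edgeR's interaction test over 27 libraries with Benjamini-Hochberg adjustment. Without the slow-ramp long pull-down library the second count was 4083, and with scaling by library totals alone it was 4479. All poly(A) libraries are of the other sequencing batch, so method and batch cannot be told apart there.

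Among the most changed and most abundant genes, the log2 change with digestion minus that with poly(A) selection was positive for Gm44805 (2.04), Zc3h11a (2.13), Rps23 (0.71), Rpl27 (0.55) and Trf (0.24). It was negative for Rps27 (-2.98), Rpl5 (-1.63), Gm12840 (-1.58), Apoc2 (-1.03), Gm45799 (-0.62), Apob (-0.52) and Scd1 (-0.25).

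Against pull-down the difference was positive for Gm2000 (5.37), Rps27rt (3.68), Gm44805 (1.58), Rpl27 (0.56) and Trf (0.29). It was negative for Rps27 (-5.46), Rpl5 (-1.61), Gm22988 (-1.59), Gm12840 (-1.40) and Apoc2 (-1.08). Of these 15 genes 11 have a near-identical gene elsewhere, and the values are for single genes, not for sums over the copies. Of the 80 genes named by rule with counts in both length groups, 39 differed between digestion and poly(A) selection and 27 between digestion and pull-down.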

How the results depend on the processing

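For long against short fragments the count of called genes, 2727, became 1060 with DESeq2, 934 in the fit of 27 libraries (1626 without the low long pull-down library) and 278 with a change of at least 1.5-fold required; without each library in turn it was 1899 to 2276. Ramp rate entered the fit as a labelled factor. Same-ramp long and short libraries deviated together only weakly across 9758 genes, with correlations of 0.083, 0.037 and 0.137. Single genes such as Cebpb and Cebpa differed by ramp rate in both length classes, as given above. Without the ramp block 2651 genes were called. For medium against short fragments the count of 51 became 27 with DESeq2, 32 without the ramp block and 27 to 41 without each short library. For long against medium fragments 1614 became 520 with DESeq2, 1541 without the ramp block and 860 to 1230 without each long library. The count that differed from pull-down, 2230, became 4083 without the low long pull-down library and 4479 with library totals alone. The mean transcript length difference of -68.7 bases became -21.3 with median transcripts and -50.4 without the 100 most abundant genes, with -80.6 to -58.7 without each library; the GC difference became -0.101 percentage points without those genes, with -0.0587 to -0.00929 without each library. Spearman's correlation with length was -0.11 with median transcripts, -0.22 for protein-coding genes, -0.24 for genes of at least 10 CPM, -0.19 for genes with no near-identical gene (added after the data were seen) and -0.16 to -0.14 without each library; that with GC was -0.25 for genes of at least 10 CPM and -0.17 to -0.15 without each library. Of 1930 alternative values for 130 genes 1825 kept direction and call, 90 lost the call, 15 gained it and 0 reversed; 40 of the losses were in the fit of 27 libraries. Depth limits low genes: 3 counts equal 0.142 CPM in the short and 0.106 CPM in the long libraries.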
